A study of Mus musculus with 16 samples.

Results

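Genes listed under catecholamine clearance are described here, although not all are known chiefly for that role. They were chosen by name from the 54347 gene rows of the count table: *Sult1a1*, *Maoa*, *Maob*, *Slc22a3* and *Slc22a5*, which makes 5 of 54347. *Sult1a1* was picked because it was among the genes with the largest falls after isoproterenol. The isoproterenol values of all 5 genes are therefore a description without a test, and the effect of the guide RNAs and its interaction with isoproterenol, which the choice did not use, were tested. The cells were wt1-SAM mouse brown adipocytes, differentiated from an immortalized preadipocyte line that carries the CRISPRa SAM system, in which an inactive Cas9 and guide-bound activators raise transcription at a chosen site. All 4 groups shared this line, the differentiation medium with rosiglitazone and a reverse transfection with 250 ng of plasmid on day 4, and all were harvested on day 7. The groups were empty vector control, empty vector with 1 µM isoproterenol for 24 h, sgRNA control and sgRNA with 1 µM isoproterenol for 24 h, where sgRNA stands for guides 2 and 7 against the long noncoding RNA gene *Gm15551*. Each group held 4 libraries, numbered 3, 4, 5 and 6. The labels name 1 line and no animals, so the spread is that between cultures of that line and may in part be technical.

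Catecholamines such as noradrenaline end their action by leaving the extracellular space and being chemically inactivated. Organic cation transporters, of which *Slc22a3* encodes a low-affinity, high-capacity member, carry them into cells that are not neurons, where monoamine oxidases A and B on the outer mitochondrial membrane (*Maoa*, *Maob*) deaminate them and cytosolic sulfotransferases such as *Sult1a1* add a sulfate group to phenolic substrates. *Slc22a5* belongs to the same transporter family but is known chiefly as the sodium-dependent carnitine carrier. Isoproterenol is a synthetic catecholamine that activates β-adrenergic receptors, the route by which sympathetic nerves drive heat production in brown fat. It is a substrate of sulfation but is a poor one for monoamine oxidase.

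The guides are shown because they define the sgRNA groups. Capitals are not used in them, and they run 5′ to 3′.
Gm15551-2: cacttccagttatataagcg
Gm15551-7: agggttttttgctaaaacgg
Guide 2 lay at chr3:126669053-126669072 on the minus strand of GRCm38, 109 bases upstream of the RefSeq start of *Gm15551* and next to the PAM TGG. Guide 7 was not found whole in that upstream window, so no position is given for it.

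The 250 bases upstream of the RefSeq start are shown for the 3 expressed members. The sequences are from RefSeq on GRCm38.p6, on the strand of the gene, and 4 of the 5 members had an entry. Capitals mark TGACG on either strand, a shorter form of the cAMP response element TGACGTCA.
Sult1a1: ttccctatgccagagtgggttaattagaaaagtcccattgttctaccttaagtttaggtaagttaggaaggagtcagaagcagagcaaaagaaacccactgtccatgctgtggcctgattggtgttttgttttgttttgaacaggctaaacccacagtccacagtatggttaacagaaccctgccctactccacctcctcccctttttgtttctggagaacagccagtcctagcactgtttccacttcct
Maoa: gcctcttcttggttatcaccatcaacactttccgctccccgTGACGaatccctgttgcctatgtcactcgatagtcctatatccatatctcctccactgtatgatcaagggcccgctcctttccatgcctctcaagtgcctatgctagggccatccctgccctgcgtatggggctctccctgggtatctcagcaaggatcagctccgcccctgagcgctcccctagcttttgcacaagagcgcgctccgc
Slc22a5: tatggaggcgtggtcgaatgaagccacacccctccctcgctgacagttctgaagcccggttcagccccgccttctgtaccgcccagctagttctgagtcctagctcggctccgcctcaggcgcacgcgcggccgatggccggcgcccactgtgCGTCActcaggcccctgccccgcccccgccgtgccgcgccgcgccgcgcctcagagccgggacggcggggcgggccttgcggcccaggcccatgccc
The windows were chr7:126676419-126676668 on the minus strand for *Sult1a1*, chrX:16619448-16619697 on the plus strand for *Maoa* and chr11:53891704-53891953 on the minus strand for *Slc22a5*. The *Maoa* window held TGACG once, 209 bases upstream, and the *Slc22a5* window held it once, 97 bases upstream. These letters were not in the *Sult1a1* window. The window of *Slc22a3*, not shown here, held them once, 80 bases upstream. Of 32851 promoter windows of the same length, 17.8% held TGACG, 1.55% held TGACGTCA and 0.0335% held DR1, a direct repeat of AGGTCA with a 1-base gap, of the kind bound by PPAR receptors. Neither of the longer motifs was in a member's window. TGACG is contained in TGACGTCA. Any part of these motifs in the isoproterenol values was not tested. The G and C content was 45.6% for *Sult1a1*, 56.8% for *Maoa* and 73.6% for *Slc22a5*, against a median of 52.4% over all windows.

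Libraries held 9053521 to 16546187 counts, of which a single ribosomal RNA gene took 11.7% to 51.8%. By group this share was 19.7% to 47.3% in empty vector control, 22.1% to 51.8% in empty vector with isoproterenol, 17.8% to 20.2% in sgRNA control and 11.7% to 28.7% in sgRNA with isoproterenol, so the highest shares were in empty vector libraries. A count of 0 in a library allowed 0.166 to 0.390 CPM (counts scaled to the TMM-adjusted library size), the level of 3 counts. *Gm15551*, the gene the guides target, was higher in sgRNA libraries by 2.37 ± 0.39 on the log2 scale (SE), with an adjusted p = 0.0989 by edgeR's quasi-likelihood test and 0.00055 with a block for replicate number. Its counts were low. The mean was 0.952 CPM in empty vector control and 0.147 CPM, from 8 counts in 4 libraries, in empty vector with isoproterenol. In sgRNA control it was 2.97 CPM and in sgRNA with isoproterenol 1.56 CPM. The adipocyte genes *Fabp4* (14462 CPM), *Lpl* and *Pparg* were present in every library. *Ptprc* and *Adgre1*, which define leukocytes and macrophages, had 6 and 1 counts in all 16 libraries, and *Th* and *Dbh*, which make noradrenaline in sympathetic neurons, had 0.

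*Sult1a1*, *Maoa* and *Slc22a5* were expressed, and *Maob* and *Slc22a3* were at the limit of detection. Per length of transcript, *Maoa* was the highest member, with a mean of 28.1 RPKM (CPM divided by exon length in kilobases) over the 16 libraries, followed by *Slc22a5* with 8.32 and *Sult1a1* with 7.64. The order of the lower pair depended on treatment. In control libraries *Sult1a1* ranged from 6.23 to 18.2 RPKM and overlapped *Slc22a5* at 8.42 to 9.18 RPKM. In libraries with isoproterenol *Sult1a1* ranged from 1.32 to 4.90 RPKM and lay below every *Slc22a5* value, the lowest of which was 7.19 RPKM. *Maoa* reached 35.3 RPKM and exceeded *Slc22a5* in every library. It exceeded *Sult1a1* in every library but sgRNA control replicate 5, where *Sult1a1* was at 17.3 RPKM and *Maoa* at its lowest level.

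*Sult1a1*, the sulfotransferase, was several times lower with isoproterenol under both plasmids. The gene lies at chr7:126672865-126676432 on the minus strand of GRCm38 and has up to 8 exons. In empty vector control cells its level was 11.8, 9.39, 27.4 and 19.8 CPM in replicates 3, 4, 5 and 6. In empty vector cells with isoproterenol it was 3.22, 1.99, 7.38 and 6.73 CPM. Control and stimulated libraries did not overlap, although replicates 5 and 6 were above replicates 3 and 4 in both. In sgRNA control cells the level was 13.4, 10.3, 26.0 and 26.8 CPM. In sgRNA cells with isoproterenol it was 2.93, 3.28, 7.05 and 6.57 CPM. Again no stimulated library reached a control library, and the lowest level of all 16 libraries, 1.99 CPM, rested on 36 counts.

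**Figure D1:**
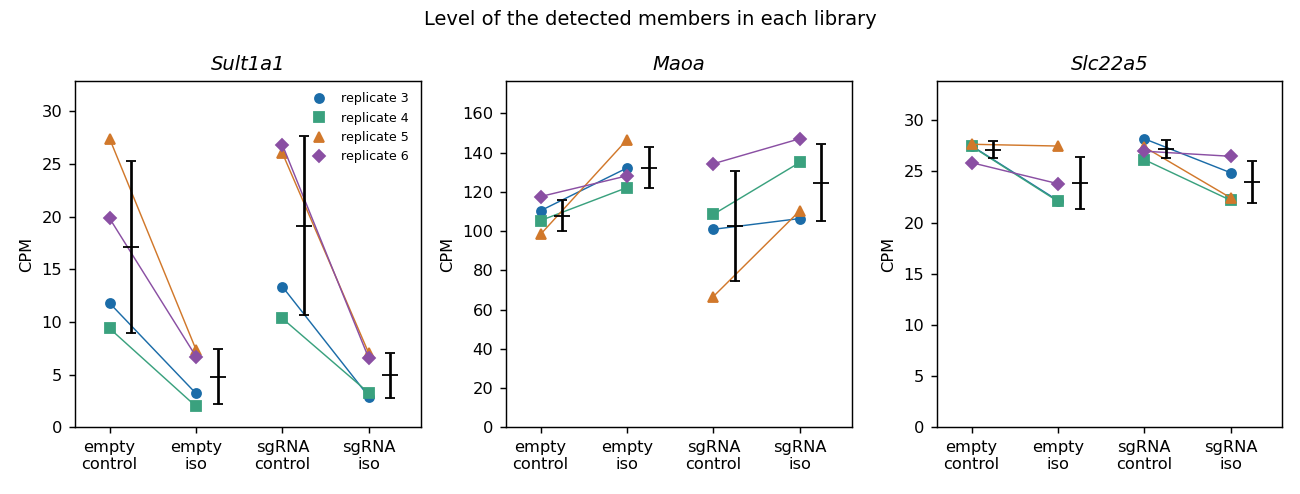
Level of *Sult1a1*, *Maoa* and *Slc22a5* in CPM (vertical axes, from 0) in each of the 16 libraries by group. Symbols and colours mark the replicate number, lines join control and isoproterenol libraries of the same number and plasmid, and black bars give the mean ± SD (n = 4). *Sult1a1* lies at 9.39 CPM or more in control and at 7.38 CPM or less in stimulated libraries, and replicates 5 and 6 are the upper pair in each group.

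Within a replicate number, *Sult1a1* with isoproterenol was 0.212 to 0.339 of the control level in empty vector cells and 0.219 to 0.317 in sgRNA cells, and it was lower in 8 of 8 pairs. Averaged over both plasmids the log2 fold change was -1.89 ± 0.33 (SE), a 3.71-fold lower level, and -1.90 ± 0.09 with the replicate block. It was -1.83 ± 0.47 in empty vector cells and -1.95 ± 0.46 in sgRNA cells. Of 13150 genes tested, 13 had a larger fall. This value chose the gene, so it is given as a description and no call is made for the members. Over all genes tested, 2.65% passed the threshold for isoproterenol (adjusted p under 0.05 and a log2 fold change beyond 0.5 either way), 1.32% in the lower direction, and 5.7% passed with the replicate block. Within empty vector cells 0.829% of genes passed, and within sgRNA cells 0.7%; with the block these shares were 4.47% and 3.9%.

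Replicate number and isoproterenol together carried nearly all the spread of *Sult1a1*. In log2 CPM, isoproterenol took 68.7% of its sum of squares, the replicate number 29.4% and the sgRNA plasmids 0.386%. Mean levels by replicate number were 7.83 CPM for replicate 3, 6.25 for replicate 4 and 15.0 for replicate 6, with replicate 5 above all of them. The summed level of 7 adipocyte markers was 21624 to 25270 CPM in replicate 3 and 20594 to 26219 CPM in replicate 4. It was 15726 to 23676 CPM in replicate 5 and 12141 to 19615 CPM in replicate 6. The range of replicate 5 overlapped those of replicates 3 and 4, while that of replicate 6 lay below both. For 6 preadipocyte and fibroblast markers the summed level was 7.63 to 19.7 CPM in replicate 5 and 41.5 to 94.3 CPM in replicate 6. It was 14.6 to 49.1 CPM in replicate 3 and 20.8 to 65.9 CPM in replicate 4. Replicate 5 overlapped replicate 3 but not replicate 4, and replicate 6 overlapped both replicates 3 and 4. Both sums are weighted to their most abundant genes. In the adipocyte sum these were *Fabp4* and *Lpl*, at means of 14462 and 3960 CPM. In the preadipocyte and fibroblast sum it was *Ly6a*, at 30.2 CPM. The part of either marker sum in the *Sult1a1* levels was not tested.

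Several adipocyte markers were also lower with isoproterenol. *Adipoq*, which encodes the hormone adiponectin, changed by -1.06 (adjusted p = 0.00222), *Cfd*, the adipocyte-secreted complement factor D, by -1.48 (adjusted p = 0.00763) and *Cidec*, a lipid droplet protein, by -0.54 (adjusted p = 0.0299) on the log2 scale in edgeR's quasi-likelihood test. These 3 of 7 markers passed, all lower, where 1.32% of all genes passed in that direction, and *Pparg*, the adipocyte transcription factor, was at -0.06. The marker sum was 15963 to 26219 CPM in empty vector control, 12141 to 21624 with isoproterenol, 19615 to 24754 in sgRNA control and 13080 to 23201 in sgRNA with isoproterenol. *Cd68* was higher by 0.91 (adjusted p = 0.00518), while the defining leukocyte genes were near 0 as given above. *Ucp1*, the uncoupling protein of brown fat, was higher by 4.03 (edgeR adjusted p = 7.36e-06), from a mean of 0.350 CPM in empty vector control. It belonged to a list of 6 thermogenic markers, of which 5 were tested. *Ppargc1a* also passed, at 0.71 (edgeR adjusted p = 0.0128). *Cidea* at 1.19, *Elovl3* at 0.25 and *Prdm16* at -0.21 did not (edgeR adjusted p = 0.155, 0.547 and 0.816). *Dio2* had 1 count in all libraries and was not tested. The part of the marker changes in the *Sult1a1* values was not tested. In bulk RNA, fewer cells that express a gene and less RNA per cell cannot be told apart.

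*Sult1a1* shares sequence with other genes. Exons of *Sgf29*, on the opposite strand, overlap it, and *Sgf29* was at -0.20 ± 0.09 on the log2 scale with isoproterenol (adjusted p = 0.255). Of the 31-base words of *Sult1a1*, 11.4% occurred in another gene, most of them in *Gm6939*, which had 14 counts in all libraries. Whether reads were counted by strand is not given in the sources used here.

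*Maoa*, monoamine oxidase A, was modestly higher with isoproterenol in every pair. The gene lies at chrX:16619698-16687818 on the plus strand. Empty vector control libraries held 110, 105, 98.4 and 118 CPM in replicates 3 to 6, and those with isoproterenol held 132, 122, 147 and 128 CPM. The sgRNA control libraries held 101, 109, 66.7 and 134 CPM, and the sgRNA libraries with isoproterenol held 106, 135, 110 and 147 CPM. Replicate 5 of sgRNA control was the lowest library, and stimulated and control libraries overlapped in sgRNA cells but not in empty vector cells. The ratio of stimulated to control was above 1 in 8 of 8 pairs and ran from 1.05 to 1.66. The averaged log2 fold change was 0.29 ± 0.12 (SE), 1.22-fold, with an interval from 0.04 to 0.53. It was 0.29 ± 0.16 in empty vector cells and 0.28 ± 0.16 in sgRNA cells. All these values were under the 0.5 of the threshold. Intervals that exclude 0 were common, as 2330 of 13150 genes had an unadjusted p under 0.05 for averaged isoproterenol by edgeR. With the block 4399 did. How many of all genes were higher in 8 of 8 pairs was not counted. Isoproterenol took 31.2% of the sum of squares, the replicate number 24.5% and the residual 40.6%.

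*Slc22a5*, the carnitine carrier, varied least. The gene lies at chr11:53864542-53891660 on the minus strand. Empty vector control libraries held 27.5, 27.5, 27.7 and 25.9 CPM, and those with isoproterenol held 22.2, 22.1, 27.5 and 23.8 CPM. The sgRNA control libraries held 28.2, 26.2, 27.4 and 27.0 CPM, and the sgRNA libraries with isoproterenol held 24.9, 22.2, 22.4 and 26.5 CPM. Stimulated libraries were lower in 8 of 8 pairs, with ratios of 0.804 to 0.994, and overlapped control libraries through replicate 5 of the empty vector and replicate 6 of sgRNA. The averaged log2 fold change was -0.18 ± 0.06 (SE), with an interval from -0.32 to -0.05. *Slc22a5* shares 37.8% of its 31-base words with other genes, 35.8% with its neighbour in the family *Slc22a21*, so the split between these genes by the quantifier is uncertain. *Slc22a21* had 275 counts in all libraries against 5202 for *Slc22a5*.

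**Figure D2:**
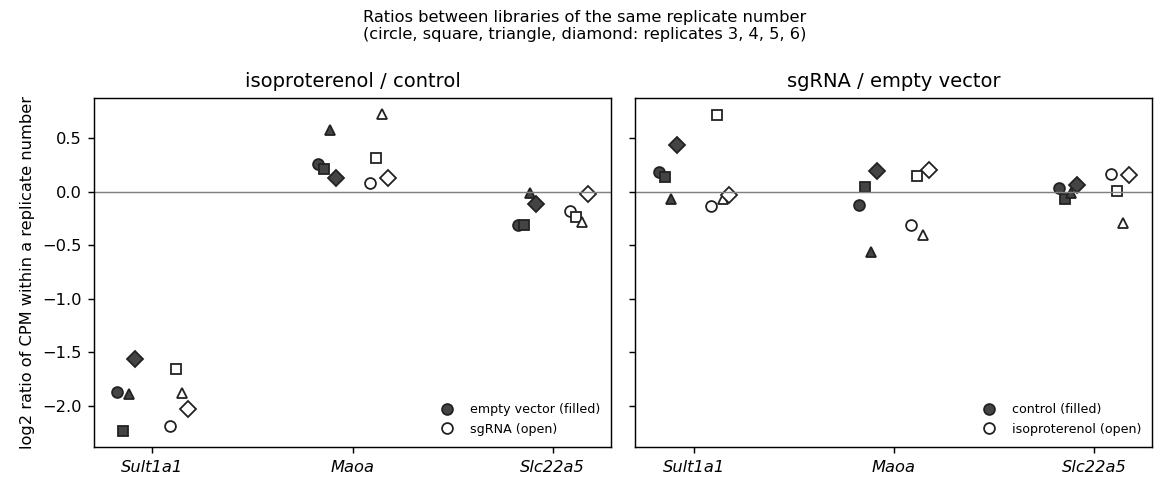
Log2 ratio of CPM between libraries of the same replicate number (vertical axis) for the 3 expressed members, isoproterenol over control on the left and sgRNA over empty vector on the right. Each symbol is 1 pair, shaped by replicate number and filled or open as the key states. On the left the 8 *Sult1a1* pairs correspond to ratios of 0.212 to 0.339 and all *Maoa* pairs lie above 0; on the right every gene has pairs on both sides of 0.

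*Maob* and *Slc22a3* gave too few counts for any comparison. *Maob*, monoamine oxidase B (chrX:16709282-16817366, minus strand), had 1 count in each of 4 libraries, namely empty vector control replicate 3 and sgRNA control replicates 3, 4 and 6, and 0 in the other 12. None of the 8 stimulated libraries held a *Maob* read. *Slc22a3*, the extraneuronal transporter (chr17:12418960-12507704, minus strand), had 1 count in empty vector control replicate 5, 1 in empty vector with isoproterenol replicate 3 and 0 in the other 14. Both levels lie under the 3 counts that a count of 0 allows, so a difference between groups was not detectable at this depth. Neither gene passed the filter on low counts, which 3 of the 5 members did.

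The sgRNA plasmids gave no difference in any expressed member that passed the test, with or without the replicate block. The fit without the block also did not pass *Gm15551*, the gene the guides target, while the blocked fit did. Averaged over both treatments, the sgRNA effect on *Sult1a1* was 0.12 ± 0.32 on the log2 scale (95% interval -0.56 to 0.80; adjusted p = 0.9997, edgeR). Once blocked by replicate number it was 0.14 ± 0.09, with an interval from -0.06 to 0.33 and an adjusted p of 0.598. *Sult1a1* was higher in 4 of 8 sgRNA to empty vector pairs, with ratios of 0.910 to 1.65. For *Maoa* the effect was -0.08 ± 0.12 (interval -0.32 to 0.17; edgeR adjusted p = 0.9997), with 4 of 8 pairs higher and ratios of 0.678 to 1.15. With the block it was -0.10 ± 0.09 (interval -0.30 to 0.10, edgeR adjusted p = 0.746). For *Slc22a5* the effect was 0.01 ± 0.06 (interval -0.13 to 0.14; edgeR adjusted p = 0.9997), with 5 of 8 pairs higher and ratios of 0.816 to 1.12. With the block it was 0.01 ± 0.06 (interval -0.12 to 0.13, edgeR adjusted p = 0.989). The intervals leave room for a change of *Sult1a1* within its bounds, and they are narrowest for *Slc22a5*. Over all genes 0 passed for the sgRNA effect by edgeR (0%), with 437 at an unadjusted p under 0.05, 10 passed by DESeq2 and 35 (0.266%) with the block. The ribosomal RNA share differed between plasmids as given above, and with that gene left out of the table the sgRNA effects were 0.13 for *Sult1a1*, -0.07 for *Maoa* and 0.01 for *Slc22a5*. Within treatments the sgRNA effect on *Sult1a1* was 0.18 ± 0.43 in control and 0.06 ± 0.48 in stimulated cells, that on *Maoa* -0.07 ± 0.16 and -0.08 ± 0.16, and that on *Slc22a5* within 0.01 of 0 in both. None passed, and the signs of these small estimates changed under several alternatives.

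The isoproterenol effect did not differ measurably between plasmids for any expressed member. The interaction was -0.11 ± 0.64 for *Sult1a1* (interval -1.48 to 1.25), -0.01 ± 0.23 for *Maoa* (interval -0.50 to 0.48) and 0.01 ± 0.13 for *Slc22a5* (interval -0.27 to 0.28), each with an edgeR adjusted p of 0.99998. With the block the *Sult1a1* interaction was -0.06 ± 0.18, with an interval from -0.45 to 0.33. Over all genes 0 passed (0%) by edgeR in either fit and 0 by DESeq2, with 52 at an unadjusted p under 0.05, or 199 with the block.

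The other genes of these pathways, 55 in 6 lists, showed which routes had measurable RNA. Of these, 54 were in the table and 27 were tested. Among the cytosolic sulfotransferase genes listed, *Sult1a1* had the most RNA. The other cytosolic enzymes *Sult1b1*, *Sult1c1* and *Sult1d1* had 0 counts in all libraries, *Sult1e1* had 1 and *Sult1c2* had 5. *Sult6b1* had 114 counts over all 16 libraries, at 0.260 RPKM, and *Sult2b1* had 55, and neither was tested. *Sult5a1* was tested, at 0.195 RPKM. The supply of the sulfate donor was well represented, with *Papss1*, which makes it, at 15.5 RPKM and *Slc35b2*, which carries it into the Golgi, at 19.3 RPKM. Of the 17 genes in this list 6 were tested and none passed for isoproterenol in either fit, with log2 fold changes from -0.27 (*Papss1*) to 0.16 (*Impad1*).

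Among the degrading enzymes 10 of 11 genes were tested. The aldehyde-handling enzymes *Akr1a1* and *Aldh2* stood at 89.0 and 23.9 RPKM. *Aoc3*, a copper amine oxidase of the adipocyte surface, was the 1 list gene to pass, with a log2 fold change of -0.60 ± 0.14 (edgeR adjusted p = 0.0201). Its level was 36.0 ± 5.87 CPM in empty vector control (SD, n = 4) and 25.5 ± 8.85 with isoproterenol, and 39.8 ± 6.45 in sgRNA control and 24.4 ± 3.13 with isoproterenol. It did not pass without replicate 3 (-0.50, adjusted p = 0.245), replicate 4 (adjusted p = 0.139) or replicate 6 (0.0548), nor without empty vector control replicate 5 (0.0502), sgRNA control replicate 3 (0.0509) or sgRNA control replicate 5 (0.0508), and it passed with the block (adjusted p = 0.000137). *Aldh1a1*, an aldehyde dehydrogenase, was at -1.14 ± 0.91 (adjusted p = 0.577) and passed with the block at -1.16 ± 0.15 (adjusted p = 3.45e-05). Its level ran from 0.283 to 26.0 CPM over the libraries, and single libraries of replicate 6 decided the size of the unblocked value. Leaving out the replicate 6 library of 1 group at a time gave -0.28 for sgRNA control, -0.30 for empty vector control, -1.85 for empty vector with isoproterenol and -2.08 for sgRNA with isoproterenol. With the block and a whole replicate number left out, a setting added after seeing the data, it was -1.25 to -1.13, and -1.14 without replicate 6 (adjusted p = 0.00698).

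**Figure D3:**
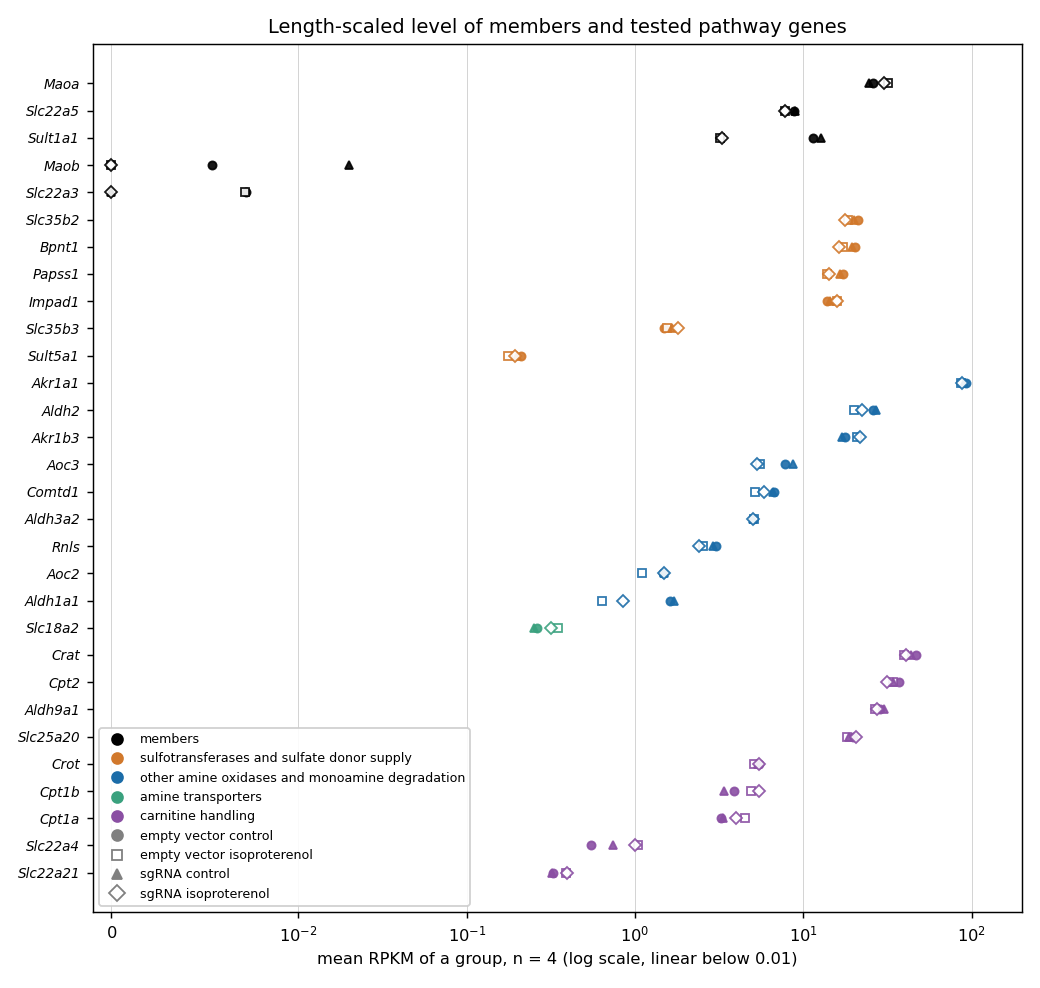
Mean RPKM of each group (n = 4; horizontal axis, logarithmic and linear below 0.01) for the 5 members and the tested genes of the pathway lists that are reported here, coloured by list, with symbols for groups. *Akr1a1*, at a mean of 89.0 RPKM, lies above *Maoa* at 28.1, and *Maob* and *Slc22a3* lie at or near 0.

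Uptake and synthesis genes were mostly at the floor. Of 9 amine transporters only *Slc18a2*, the vesicular carrier, was tested, at 0.294 RPKM and 0.38 ± 0.21 (adjusted p = 0.388). *Slc6a2*, the neuronal noradrenaline transporter, had 47 counts, and the organic cation transporter *Slc22a2* had 2. None of the 4 synthesis genes was tested.

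Carnitine handling, the route of *Slc22a5*, had 9 of 11 genes tested. None passed without the block. With it *Slc22a4*, a related transporter, was higher by 0.69 ± 0.15 (adjusted p = 0.00355), against 0.68 ± 0.20 and an adjusted p of 0.0711 without it. The outer mitochondrial carnitine palmitoyltransferases *Cpt1a* and *Cpt1b* were at 0.35 ± 0.13 and 0.52 ± 0.23 (adjusted p = 0.146 and 0.256). Over all 27 tested genes the lists had 0 higher and 1 lower for isoproterenol, or 1 higher and 2 lower with the block, where 2.65% and 5.7% of all genes tested passed in the respective fits, and a median log2 fold change of -0.07 against 0.0047 over all genes tested. For the sgRNA effect and the interaction 0 of 27 passed in either fit.

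**Figure D4:**
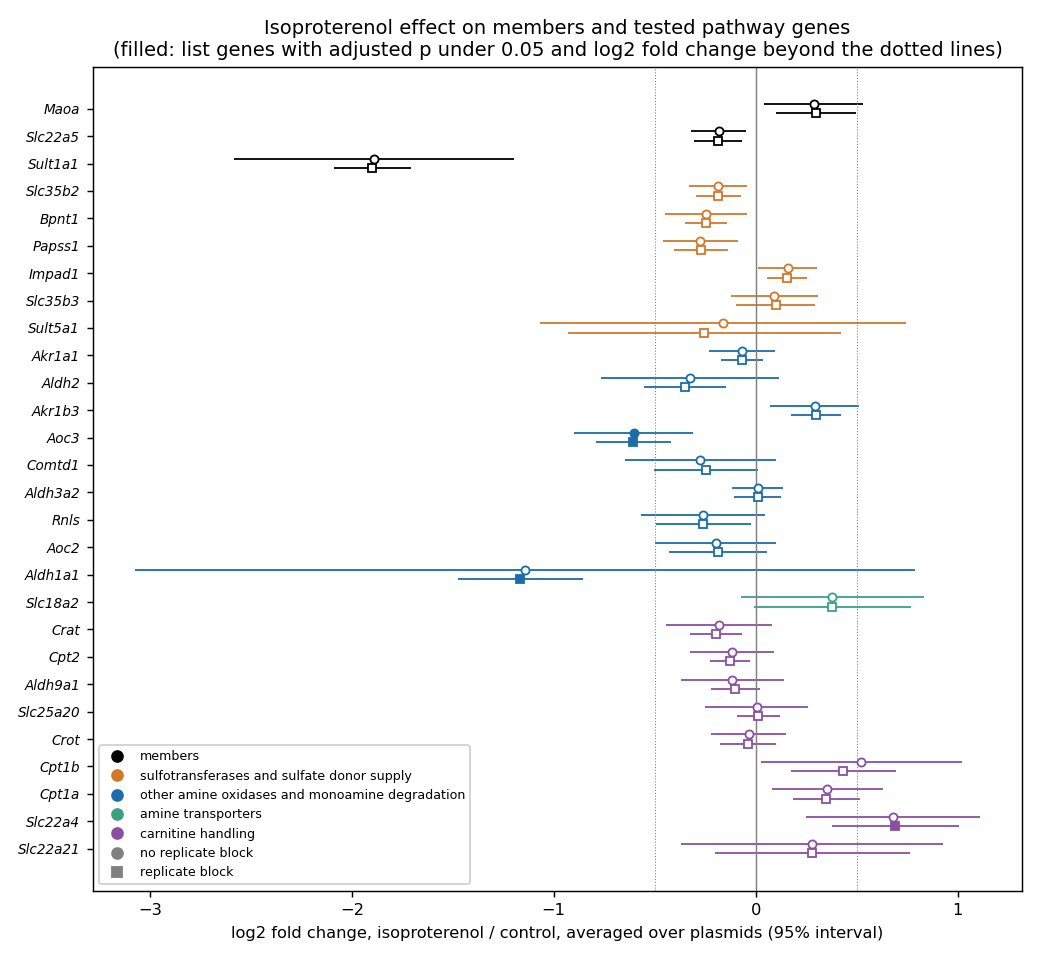
Log2 fold change of isoproterenol over control, averaged over both plasmids (horizontal axis), with 95% intervals, for the 3 expressed members and the tested list genes that are reported here. Circles are without and squares with the replicate block, and filled symbols are list genes that passed the threshold, whose fold size the dotted lines mark; members are open throughout, as they were not tested here. *Aoc3* at -0.60 is filled in both fits, and *Aldh1a1* and *Slc22a4* in the blocked fit; *Sult1a1* lies at -1.89, the value that chose it.

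The genes whose log2 CPM ran most like each member over the 16 libraries are named as a description, since all share the same libraries, treatment and replicate numbers. For *Sult1a1* they were *Mxd4* (Pearson r = 0.974), *Pik3r1* (0.971) and *Nsdhl* (0.952), and *Gm47571* ran most opposite (-0.958). For *Maoa* they were *Ephx1* (0.852), *Gla* (0.845) and *Gm53* (0.837), with *Ncoa5* most opposite (-0.809). For *Slc22a5* they were *Myo1c* (0.904), *Vac14* (0.901) and *Arhgap1* (0.881), with *Ppp4r2* most opposite (-0.891). The closest likeness of *Maoa* was lower than that of the other pair of members.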

How the data were processed

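Polyadenylated RNA of 16 libraries was sequenced in paired ends. Per the labels and the study's methods, the authors filtered reads with cutadapt, quantified them with salmon on the Gencode M22 transcriptome (GRCm38) and deposited estimated counts per gene as whole numbers, not normalized; versions are not given in the sources used here. Salmon divides reads shared by similar transcripts, which makes paralogs uncertain. Groups came from the labels. All columns were used.

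Counts were analysed in R 4.3.3 with edgeR 4.0.16: filterByExpr (minimum count 10, minimum total 15) kept 13150 of 54347 genes, libraries were scaled by TMM, and 4 group means were fitted by glmQLFit to all libraries. Tests were two-sided glmQLFTest with Benjamini-Hochberg adjustment over the 13150 genes. The threshold for passing was an adjusted p under 0.05 together with a log2 fold change larger than 0.5 in size. CPM used the TMM-scaled totals, and RPKM divided CPM by union exon length from a GENCODE annotation of GRCm38. Log2 CPM used a prior count of 2. Floors cover counting error only. DESeq2 1.42.0 was an alternative, as were RLE scaling, no count filter, leaving out the ribosomal RNA gene, and leaving out replicate numbers or libraries. The code was tested on simulated data.

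Libraries of the same replicate number deviated together (24 pairs, r from 0.224 to 0.613), so the number was taken as pairing them. Blocked values are given where they change a call and for the averaged sgRNA effect on the members. Biological variation was 18.0% without and 9.96% with the block. The named genes were the members, the genes of the 6 lists, a few of which are counted but not reported singly here, the library checks, and for each tested member the 3 most and 1 least correlated genes. The alternatives followed 3 list genes, because they passed with or without the block. The members and lists were chosen with earlier results of these data known.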

Additional observations from a re-analysis of the deposited data

Results flagged for a closer look

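Groups of 4 libraries or pairs were checked for a value far from the others by Dixon's ratio of gap to range, at its 95% critical value. Of 36 groups checked 2 passed, and chance gives about 5%. *Slc22a5* was 25.9 CPM in replicate 6 of empty vector control, where the others were 27.5 to 27.7 CPM (ratio 0.890). The *Sult1a1* ratio of sgRNA to empty vector in stimulated cells was 1.65 in replicate 4, where the others were 0.910 to 0.976 (ratio 0.882); the empty vector library of that pair held the lowest *Sult1a1* level, 1.99 CPM.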

How the results depend on the processing

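Isoproterenol estimates of the members kept their direction in all 29 alternatives: *Sult1a1* from -2.02 to -1.73, *Maoa* from 0.19 to 0.36 and *Slc22a5* from -0.23 to -0.15. Within empty vector cells *Sult1a1* ranged from -2.10 to -1.52. Of 609 member estimates under alternatives 77 changed sign, all of them sgRNA or interaction estimates, none of which passed the test. Those values are too close to 0 for a direction to be read, and the cause of each sign was not tested.

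Leaving out single libraries or replicate numbers, the averaged sgRNA effect ran from -0.025 to 0.28 for *Sult1a1*, -0.18 to 0.038 for *Maoa* and -0.024 to 0.064 for *Slc22a5*. The interaction ran from -0.43 to 0.15, -0.18 to 0.14 and -0.044 to 0.10. The sgRNA effect in control cells ran from -0.016 to 0.50, -0.21 to 0.10 and -0.019 to 0.042, and in stimulated cells from -0.23 to 0.33, -0.18 to 0.027 and -0.041 to 0.11. For *Slc22a5* the interaction was -0.00083 with RLE scaling and -0.0053 without the ribosomal RNA gene, and the sgRNA effect in control cells was -0.00023 with the replicate block.

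The replicate block with 1 replicate number left out was added after seeing the data. The sign changed for *Sult1a1* in the interaction (0.095 without replicate 6) and in stimulated cells (-0.062 without replicate 4). For *Maoa* it changed in the averaged sgRNA effect (0.030), in control cells (0.041) and in stimulated cells (0.019), all without replicate 5, and in the interaction (0.047 without replicate 3). For *Slc22a5* it changed without replicates 3 and 6 in the averaged effect (-0.022 and -0.020), in control cells (-0.012 and -0.0052) and in stimulated cells (-0.032 and -0.034), and in the interaction without replicates 3, 4 and 6 (-0.021, -0.019 and -0.029).

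Counts of genes that passed moved more. With the replicate block 749 genes passed for isoproterenol, against 349, with 588 against 109 in empty vector and 513 against 92 in sgRNA cells. For the sgRNA effect, where 0 passed, the block gave 35 averaged, 4 in control and 16 in stimulated cells. DESeq2 gave 10, 2 and 2 for the sgRNA effect in that order, and 223 and 176 for isoproterenol in empty vector and sgRNA cells. With no filter on low counts the sgRNA effect gave 10, 1 and 4. Leaving out replicates or libraries gave 120 (without replicate 3) to 465 for averaged isoproterenol, 35 (without replicate 4) to 181 in empty vector cells, 29 (without replicate 4) to 98 in sgRNA cells and 0 to 2 for the averaged sgRNA effect. The interaction gave 0 in each alternative. Of the list genes 3 passed with the block and 2 by DESeq2, against 1, and 0 to 1 passed with a replicate number left out.

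*Aldh1a1* moved from -2.08 to -0.28 with single libraries left out, the extremes being without sgRNA isoproterenol and without sgRNA control replicate 6. Depth limits *Maob* and *Slc22a3*, which could not be compared.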
